A study of Mus musculus with 6 samples.

Results

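The genes described here encode the nuclear-encoded subunits of the mitochondrial respiratory chain and ATP synthase, compared between 2 mouse endothelial cell lines by bulk RNA-seq. Members were taken by gene symbol: every name starting with Nduf, Uqcr or Atp5, the succinate dehydrogenase genes Sdha to Sdhd, Cyc1, and Cox4 to Cox8 genes named by isoform letter and copy number (which takes Cox6a1 but not Cox4i1). Symbols of numbered pseudogenes were to be left out, and none matched. The rule found 91 of the 24411 genes in the table. Of these, 82 encode subunits: 36 of complex I, 4 of complex II, 9 of complex III, 18 of complex IV and 15 of complex V. The other 9 carry a matching name but are assembly factors or related genes, and they are described apart.

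The UV2 line (labelled UV♀2) came from (BALB/c x C57BL/6)F1 mice and the bEnd.3 line, a brain endothelial line immortalised with a viral oncogene, from BALB/c mice. Each line gave 3 libraries. Cells of both lines were grown to confluence on 10-cm dishes, washed and held without serum for 3 days before they were lifted with trypsin-EDTA for RNA. Each group is a single established line, so a difference between the lines cannot be told apart from a difference between the strains. Nothing in the labels says that the replicates were separate cultures, so the spread behind the p-values may be only technical.

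Complex I oxidises NADH and complex II oxidises succinate, and both pass electrons to coenzyme Q. Complex III carries them on to cytochrome c and complex IV to oxygen, while complexes I, III and IV pump protons across the inner membrane and complex V uses the proton gradient to make ATP. Most subunits are encoded in the nucleus and imported, whereas a few central subunits of all but complex II are encoded in mitochondrial DNA. Endothelial cells are known to draw most of their ATP from glycolysis and keep a comparatively small mitochondrial volume.

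Libraries held 21306441 to 26769149 expected counts in UV2 and 21944529 to 28748128 in bEnd.3, and 12720 genes were tested. Of the endothelial markers, 9 of 10 exceeded 1 CPM (counts scaled to library size) in UV2 and 10 of 10 in bEnd.3, with Cldn5 the one below that level in UV2. Cldn5 averaged 0.262 CPM in UV2 and 1052 CPM in bEnd.3, and Emcn 281 and 780 CPM. Cldn5, Emcn, Egfl7 and Erg were called lower in UV2, Tie1 was called higher and the other endothelial markers were not called. Fibroblast and mural markers summed to 10.9 to 22.0 CPM in UV2 and 2.02 to 3.26 CPM in bEnd.3. Most of it was Pdgfra (mean 11.0 CPM in UV2, 2.07 CPM in bEnd.3) and Pdgfrb (4.36 and 0.287 CPM), both called higher in UV2. The other markers of that list stayed under 1 CPM, with Des at 0 in all libraries. Leukocyte markers summed to 253 to 343 CPM in UV2 and 89.7 to 159 CPM in bEnd.3, most of it Cd68, while Adgre1 and Cd3e were at 0 in all libraries. The part of these markers in the results was not tested. Striated muscle markers, which matter here because several COX isoforms are muscle genes, stayed under 1 CPM in sum, with Ckm, Myh6 and Myog at 0.

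Transcripts of the respiratory chain were lower in UV2 than in bEnd.3 in most members, by modest amounts. In bulk RNA, fewer cells with a transcript and less of it per cell cannot be told apart. Of the 83 members that passed the filter on low counts, 47 were lower in UV2 (56.6%), 9 were higher (10.8%) and 27 were not called, by edgeR's quasi-likelihood test at an adjusted p under 0.05. Among all tested genes, 33.3% were called lower in UV2 and 33.9% higher, so that lower calls were more frequent among members than in the background and higher calls less frequent. Calls in either direction took 67.1% of all tested genes. The median log2 fold change over the tested members was -0.25, against -0.01 over all tested genes. Summed over all 91 members, the level was 6541 ± 176 CPM in UV2 and 7663 ± 319 CPM in bEnd.3 (SD, n = 3 each), which is 14.6% lower in UV2. No UV2 library reached a bEnd.3 library in this sum, whose lowest value was 7297 CPM in bEnd.3 and whose highest was 6737 CPM in UV2.

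Few of these differences were large. Against a 1.5-fold threshold, 4 members were lower in UV2 (Ndufab1, Ndufs3, Cox5a and Ndufaf3) and 1 was higher (Cox6c). Among all tested genes, 14.5% were lower and 16.8% higher beyond that threshold. Cox6c was no longer past it without UV2 replicate 1 or 2 or bEnd.3 replicate 2 or 3, nor with total counts, no filter or limma-voom, although it remained called higher in each. All 3 UV2 libraries lay below all 3 bEnd.3 libraries for 56 members and above them for 12, while the libraries of 15 overlapped. In the background 36.8% of genes had UV2 below and 36.5% had UV2 above. Without any 1 library, between 39 and 49 members were called lower and between 7 and 9 higher, and 44 members kept their call in each of these 6 fits.

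**Figure D1:**
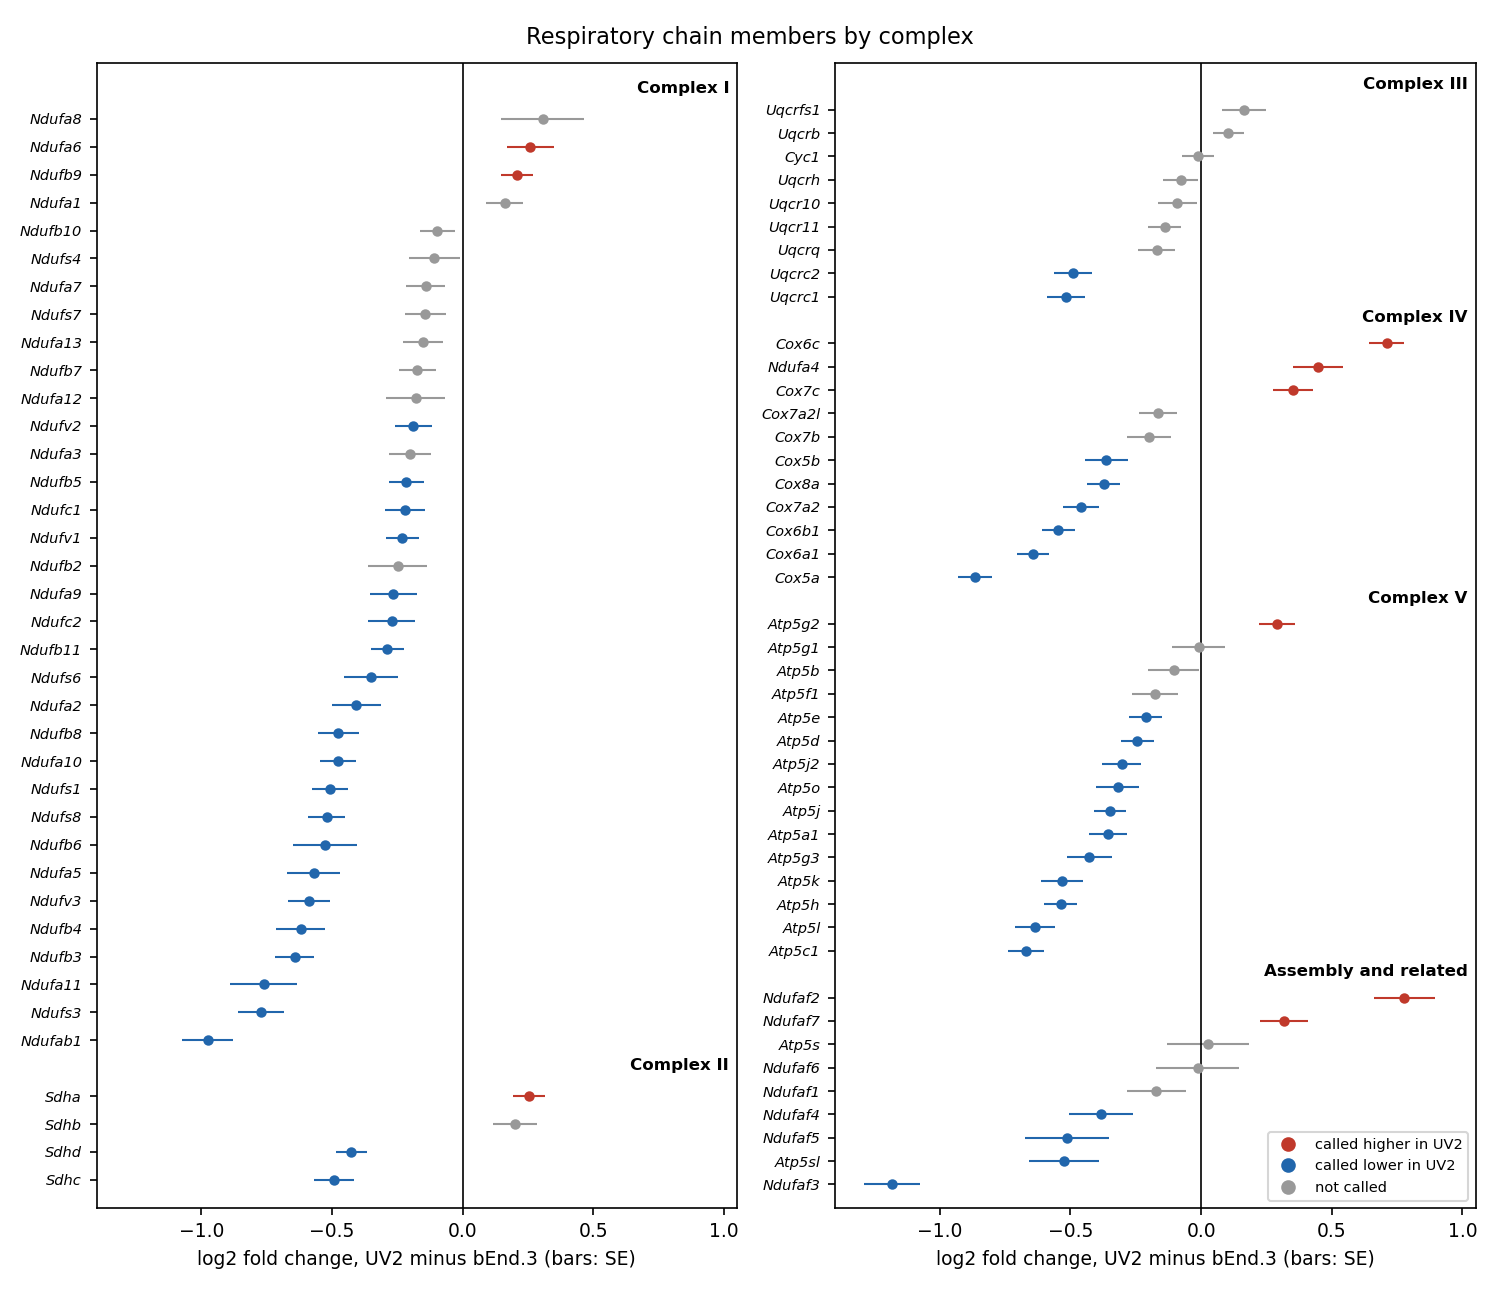
Log2 fold change (UV2 minus bEnd.3, x axis) of 82 of the 83 tested members, grouped by complex and sorted by value, with bars of 1 standard error. Blue points are members called lower in UV2, red points those called higher and grey points those not called; most points lie left of 0.

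The summed level was 16.7% lower in UV2 for complex I, 12.5% for complex III, 13.1% for complex IV and 15.8% for complex V, but 1.86% for complex II, where the libraries of the lines overlapped. These sums are dominated by the most abundant transcripts and carry no test. The medians of the single log2 fold changes were -0.27 for complex I, -0.11 for complex II, -0.09 for complex III, -0.36 for complex IV and -0.32 for complex V. Differences between complexes were not tested.

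**Figure D2:**
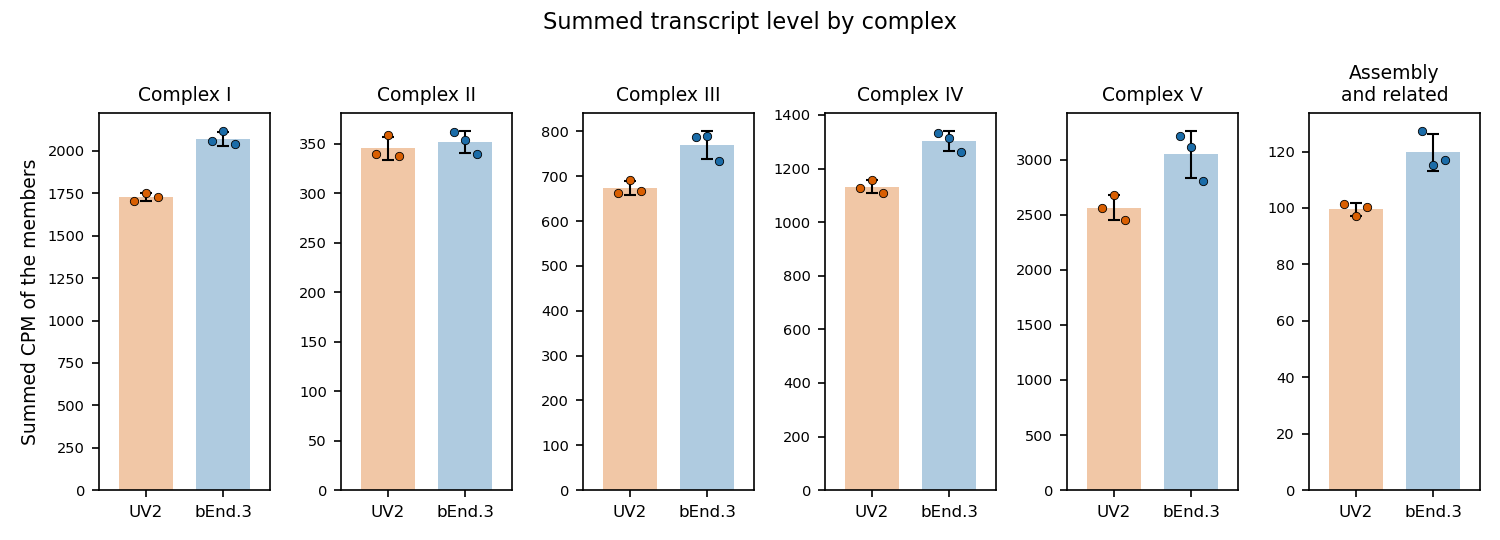
Summed CPM of the members of each complex (y axis, from 0) in the 3 UV2 and the 3 bEnd.3 libraries; bars are means, error bars SD (n = 3) and points single libraries. The UV2 libraries lie below all bEnd.3 libraries for complexes I, III, IV and V and for the assembly group, and overlap them for complex II.

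Many genes of this group share promoter elements that are known to bind the transcription factors NRF1, GABP (an ETS factor) and YY1. RefSeq promoter windows of GRCm38.p6, 250 bases before to 50 after the start, were matched for 76 of the 91 members (82 windows) and searched on both strands. The NRF1 core GCGCATGCG was found in 10 member windows (12.2%), against 1.75% of all 32851 windows. A second form, GCATGCGC, which overlaps the core, was in 12 member windows (14.6%), against 2.71% of all windows. The ETS motif CCGGAAG was in 17 (20.7%), against 8.86%, and the YY1 motif AAGATGGCG in 9 (11.0%), against 1.40%. All windows cover 27025 genes, whether tested here or not. Of the members with a promoter window, the NRF1 core was found in 1 of 7 called higher, 7 of 41 called lower and 2 of 23 not called. In the same order, the ETS motif was in 0 of 7, 12 of 41 and 5 of 23, and the YY1 motif in 0 of 7, 6 of 41 and 2 of 23. These splits were not tested. The following stretches upstream of a RefSeq start, written 5′ to 3′ on the gene's strand with the motif in capitals, are shown because they hold the NRF1 core in members that differed in opposite directions, Atp5g2 having been higher in UV2 and the other members lower. A further pair of lower members is shown for the YY1 motif, where the stretch precedes an inner RefSeq start and so lies within the gene.
Atp5g2, NRF1 core, chr15:102671066-102671104, minus strand: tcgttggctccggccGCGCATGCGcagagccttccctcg
Atp5k, NRF1 core, chr5:108434426-108434464, minus strand: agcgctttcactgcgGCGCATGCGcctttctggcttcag
Atp5l, NRF1 core read from the other strand, chr9:44920960-44920992, minus strand: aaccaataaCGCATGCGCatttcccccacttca
Cox6a1, NRF1 core, chr5:115349097-115349135, minus strand: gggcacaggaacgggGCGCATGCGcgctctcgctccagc
Ndufa11, NRF1 core, chr17:56717687-56717725, plus strand: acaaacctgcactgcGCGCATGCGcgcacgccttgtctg
Ndufaf4, NRF1 core, chr4:24897955-24897993, plus strand: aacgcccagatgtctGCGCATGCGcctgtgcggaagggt
Atp5j, YY1 motif, chr16:84835041-84835079, minus strand: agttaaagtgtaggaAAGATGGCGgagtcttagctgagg
Atp5sl, YY1 motif, chr7:25619425-25619463, plus strand: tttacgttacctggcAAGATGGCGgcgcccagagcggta
A match is a description of the letters in these windows and not of binding.

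Complex I showed the most lower members in number: 22 of its 35 tested members were lower in UV2 (62.9%), 2 were higher (5.71%) and 11 were not called. The shares of all tested genes were 33.3% lower and 33.9% higher. The 7 nuclear-encoded core subunits, which carry the flavin and the iron-sulphur clusters, were lower in 6 cases and higher in none. Their summed level was 429 ± 15.6 CPM in UV2 and 601 ± 11.1 CPM in bEnd.3 (SD, n = 3 each), 28.7% lower in UV2. Accessory subunits, which surround the core and support its assembly, numbered 16 lower, 2 higher and 10 not called, and their sum was 11.8% lower.

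Ndufs3, a core subunit of the arm that faces the matrix (chr2:90894627-90904721), gave 36.9, 39.9 and 34.1 CPM in UV2, against 68.1, 61.9 and 59.4 CPM in bEnd.3. It was 41.4% lower in UV2, with no overlap (log2 fold change -0.77, SE 0.09, adjusted p = 1.37e-04). Ndufs1, the largest iron-sulphur subunit, gave 75.3, 77.9 and 76.7 CPM in UV2 and 114, 113 and 101 CPM in bEnd.3 (log2 fold change -0.51, SE 0.07, adjusted p = 3.58e-04). Ndufs8, another iron-sulphur subunit, was lower by a like amount (log2 fold change -0.52, SE 0.07, adjusted p = 3.71e-04). The NADH-binding flavoprotein Ndufv1 was lower by less, at 56.0 ± 2.50 CPM in UV2 and 65.7 ± 0.940 CPM in bEnd.3 (log2 fold change -0.23, SE 0.06, adjusted p = 0.0119). Ndufv2, its partner in that module, was lower by 12.3% (log2 fold change -0.19, SE 0.07, adjusted p = 0.0452). Both calls were lost in some fits with fewer libraries: the adjusted p for Ndufv1 was 0.0585 without UV2 replicate 1, and that for Ndufv2 was 0.0901 to 0.158 when UV2 replicate 1 or 3 or bEnd.3 replicate 1 or 2 was left out. With each library left out in turn, the log2 fold change stayed at -0.26 to -0.20 for Ndufv1 and -0.23 to -0.15 for Ndufv2. With DESeq2 the adjusted p for Ndufv2 was 0.0755.

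Ndufab1, the mitochondrial acyl carrier protein that also serves fatty acid and lipoic acid synthesis (chr7:122086815-122101848), had the largest fall of complex I. Its values were 28.5, 25.7 and 26.8 CPM in the UV2 libraries, against 59.3, 52.6 and 47.5 CPM in the bEnd.3 libraries, so that the lines did not overlap and UV2 was 49.1% lower (log2 fold change -0.98, SE 0.10, adjusted p = 7.79e-05). Ndufa11, a membrane-arm accessory subunit (chr17:56717762-56724248), gave 28.5, 31.1 and 23.9 CPM in UV2, against 41.0, 52.5 and 48.0 CPM in bEnd.3. Its libraries varied more than those of Ndufab1 but stayed apart (log2 fold change -0.76, SE 0.13, adjusted p = 0.00107). Ndufb3, Ndufb4, Ndufv3, Ndufa5 and Ndufb6 were lower by 30.6% to 35.9%, and Ndufb8, Ndufa10, Ndufa2 and Ndufs6 by 21.6% to 28.1%. Ndufs6 lost its call without UV2 replicate 3 (adjusted p = 0.0507) and without bEnd.3 replicate 2 (adjusted p = 0.067).

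Ndufa6 and Ndufb9, a pair of accessory subunits that both belong to the family of LYR-motif proteins, were the complex I members called higher. Ndufa6 (chr15:82350139-82354291) gave 60.2, 58.1 and 58.7 CPM in UV2 and 43.2, 50.7 and 54.0 CPM in bEnd.3 (log2 fold change 0.26, SE 0.09, adjusted p = 0.0335). Ndufb9 (chr15:58933801-58939516) gave 68.5, 65.1 and 65.1 CPM in UV2 and 56.7, 59.3 and 55.9 CPM in bEnd.3 (log2 fold change 0.21, SE 0.06, adjusted p = 0.0171). In both, every UV2 library exceeded every bEnd.3 library, by a narrow margin. The call for Ndufa6 was lost when any library but bEnd.3 replicate 3 was left out (adjusted p = 0.0546 to 0.0752), and that for Ndufb9 without UV2 replicate 1 (adjusted p = 0.0583). Both were also lost with total counts in place of TMM (adjusted p = 0.102 for Ndufa6 and 0.0838 for Ndufb9).

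The calls of other small differences in complex I were as fragile. Ndufa9, Ndufb5, Ndufc1 and Ndufc2 were lower in UV2 by 13.9% to 17.1%, and each lost its call without at least 1 library; Ndufc1 lost it without any of the 6 (adjusted p = 0.0677 to 0.121) and with DESeq2 (adjusted p = 0.0671). Ndufa9 gave 0.0745 to 0.109 without UV2 replicate 1 or 3 or bEnd.3 replicate 1 or 2. Ndufb5 gave 0.0737 to 0.0996 without UV2 replicate 1 or 3 or bEnd.3 replicate 2, and Ndufc2 gave 0.0533 to 0.114 without UV2 replicate 2 or 3 or bEnd.3 replicate 1 or 2. Ndufb11 and Ndufa1 are X-linked accessory subunits. Ndufb11 was lower in UV2, at 66.9 ± 3.44 CPM in UV2 and 81.7 ± 1.39 CPM in bEnd.3 (log2 fold change -0.29, SE 0.06, adjusted p = 0.00451). Ndufa1 stood at 33.9 ± 0.890 CPM in UV2 and 30.3 ± 0.907 CPM in bEnd.3 and was not called (log2 fold change 0.16, SE 0.07, adjusted p = 0.078).

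Levels between genes were compared as CPM per kilobase of the shortest principal transcript of each gene. Only tested subunits were used, which in complex IV were 11 of 18 and left out its near-absent isoforms. The median level per kilobase over complex I was 40.0 CPM in UV2 and 52.3 CPM in bEnd.3, lower than the medians of complex III (101 in UV2, 94.0 in bEnd.3), complex IV (131 in UV2, 169 in bEnd.3) and complex V (140 in UV2, 179 in bEnd.3). Complex II lay near complex I, with 48.3 in UV2 and 46.3 in bEnd.3. Ndufa8, an accessory subunit with paired cysteine motifs, stood above every other complex I member, at 287 CPM per kilobase in UV2 and 232 in bEnd.3. It also varied most between replicates in CPM, with 218, 226 and 297 CPM in UV2, against 161, 222 and 217 CPM in bEnd.3. The lines overlapped and the difference was not called (log2 fold change 0.31, SE 0.16, adjusted p = 0.12).

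Ndufs5, an accessory subunit of the intermembrane space side (chr4:123712710-123718186), did not pass the filter, with expected counts of 17.4, 0 and 0 in UV2 and 2.6, 2.48 and 0 in bEnd.3. The processed pseudogene BC002163 (chr16:42955631-42955949) is a near copy of part of it. Its 319 bases align to bases 93 to 411 of a 525-base Ndufs5 transcript with 2 mismatches, an identity of 99.373%. BC002163 was counted at 28.5, 30.8 and 30.6 CPM in UV2, against 46.0, 42.0 and 40.8 CPM in bEnd.3. It was lower in all UV2 libraries (log2 fold change -0.52, SE 0.08, adjusted p = 7.23e-04). With so few mismatches, most reads from the aligned stretch of the gene and from the pseudogene cannot be told apart. The other bases of Ndufs5 have no counterpart in BC002163, but the counts do not say where reads fell. The value of neither can therefore be taken as its own.

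Complex II split into a pair of subunits with higher values and a pair with lower values. Sdha, the flavoprotein that oxidises succinate (chr13:74322255-74350240), gave 175, 184 and 175 CPM in the UV2 libraries, against 150.3, 153 and 145 CPM in the bEnd.3 libraries. All UV2 values lay above all bEnd.3 values (log2 fold change 0.25, SE 0.06, adjusted p = 0.00665). Sdhb, the iron-sulphur subunit, gave 54.1, 58.7 and 49.1 CPM in UV2 and 46.5, 49.0 and 45.2 CPM in bEnd.3, with no overlap, although the lowest UV2 and the highest bEnd.3 library almost touched. It was not called (log2 fold change 0.20, SE 0.08, adjusted p = 0.0623), but was called higher without UV2 replicate 3 (adjusted p = 0.0252) and with the replicate number as a block (adjusted p = 0.0359).

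The membrane anchors of complex II went the other way. Sdhc (chr1:171129157-171150640) gave 52.2, 52.8 and 53.0 CPM in UV2, against 81.6, 70.4 and 70.0 CPM in bEnd.3 (log2 fold change -0.49, SE 0.08, adjusted p = 7.85e-04). Sdhd (chr9:50596340-50603849) gave 59.0, 62.7 and 60.5 CPM in UV2, against 83.2, 81.9 and 79.7 CPM in bEnd.3 (log2 fold change -0.43, SE 0.06, adjusted p = 4.20e-04). Summed, the anchors were 27.1% lower in UV2, at 113 ± 2.16 CPM in UV2 and 156 ± 8.07 CPM in bEnd.3 (SD, n = 3 each). The catalytic pair summed to 232 ± 10.0 CPM in UV2 and 196 ± 5.76 CPM in bEnd.3, which was 18.2% higher in UV2.

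In complex III, 2 of 9 members were lower in UV2 (22.2%), the core proteins of the matrix side, and no member was higher. Among all tested genes 33.3% were lower and 33.9% higher, so lower calls were no more frequent here than in the background. Uqcrc1 (chr9:108936648-108949641), a structural subunit related to mitochondrial processing peptidases, gave 96.0, 100.1 and 94.6 CPM in UV2, against 146, 143 and 127 CPM in bEnd.3. Its partner Uqcrc2 (chr7:120635189-120659523) gave 96.6, 106 and 96.7 CPM in UV2, against 148, 139 and 133 CPM in bEnd.3. Both were lower in every UV2 library, by 30.1% for Uqcrc1 (log2 fold change -0.52, SE 0.07, adjusted p = 4.64e-04) and by 28.7% for Uqcrc2 (log2 fold change -0.49, SE 0.07, adjusted p = 5.97e-04). The remaining 7 members were not called. Among them were the redox subunits: Cyc1, the cytochrome c1 protein, stood at 92.6 ± 2.95 CPM in UV2 and 93.3 ± 3.30 CPM in bEnd.3 (log2 fold change -0.01, SE 0.06, adjusted p = 0.874), and Uqcrfs1, the Rieske iron-sulphur protein, at 57.8 ± 4.19 CPM in UV2 and 51.6 ± 3.82 CPM in bEnd.3 (log2 fold change 0.16, SE 0.08, adjusted p = 0.121). The small subunits Uqcrb, Uqcrh, Uqcrq, Uqcr10 and Uqcr11 had log2 fold changes of -0.17 to 0.10. Uqcrq was called lower without bEnd.3 replicate 3 (adjusted p = 0.0273), with the replicate block (adjusted p = 0.0381) and with total counts (adjusted p = 0.0201). Cyc1 was called lower with the median of nearby genes removed (log2 fold change -0.49, adjusted p = 2.86e-04). It was also called lower with the median of the chromosome removed (-0.52, adjusted p = 2.17e-04). Uqcrfs1, Uqcrb and Uqcr11 were called lower under each of these adjustments too.

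Complex IV held the widest spread of values, with 6 of 11 tested members lower (54.5%), 3 higher (27.3%) and 2 not called. Among all tested genes, 33.3% were lower and 33.9% higher. Cox5a, a matrix-side subunit that is present in every cytochrome c oxidase (chr9:57517328-57532427), gave 57.9, 58.8 and 62.5 CPM in the UV2 libraries, against 114, 109 and 104 CPM in the bEnd.3 libraries. The lines were widely apart and UV2 was 45.1% lower (log2 fold change -0.87, SE 0.07, adjusted p = 1.83e-05). Cox6c, an inner-membrane subunit (chr15:35931976-35938246), went the other way with 178, 183 and 167 CPM in UV2, against 112, 108 and 103 CPM in bEnd.3. No library of one line came near the other, and UV2 was 63.5% higher (log2 fold change 0.71, SE 0.07, adjusted p = 5.65e-05).

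Other members of complex IV followed one or the other. Cox6a1 was 36.0% lower in UV2, at 119.9 ± 1.47 CPM in UV2 and 187 ± 7.28 CPM in bEnd.3 (log2 fold change -0.64, SE 0.06, adjusted p = 5.58e-05), and Cox6b1, which faces the intermembrane space, was 31.5% lower (log2 fold change -0.55, SE 0.06, adjusted p = 1.54e-04). The zinc-binding subunit Cox5b (log2 fold change -0.36, SE 0.08, adjusted p = 0.00503), Cox7a2 (log2 fold change -0.46, SE 0.07, adjusted p = 6.38e-04) and Cox8a (log2 fold change -0.37, SE 0.06, adjusted p = 0.00112) were lower by 22.2% to 27.3%. Higher in UV2 were Cox7c, with 67.4, 73.7 and 69.2 CPM in UV2 and 57.6, 57.0 and 50.3 CPM in bEnd.3 (log2 fold change 0.35, SE 0.08, adjusted p = 0.00427), and Ndufa4. Ndufa4, named for complex I but now placed in complex IV, gave 66.5, 61.9 and 57.1 CPM in UV2, against 48.4, 47.6 and 40.3 CPM in bEnd.3, with no overlap (log2 fold change 0.45, SE 0.10, adjusted p = 0.00379). The X-linked Cox7b stood at 92.9 ± 5.05 CPM in UV2 and 107 ± 9.45 CPM in bEnd.3 (log2 fold change -0.20, SE 0.08, adjusted p = 0.0649), and Cox7a2l, which helps join complexes III and IV into supercomplexes, at 229 ± 4.52 CPM in UV2 and 257 ± 18.8 CPM in bEnd.3 (log2 fold change -0.17, SE 0.07, adjusted p = 0.0762). Neither was called, though Cox7b was called lower without bEnd.3 replicate 3 (adjusted p = 0.0206) and Cox7a2l without bEnd.3 replicate 1 (adjusted p = 0.0172), and both were with total counts and with the chromosome's median removed (adjusted p = 0.0200 to 0.0226). With the median of nearby genes removed, Cox7b was called lower as well (adjusted p = 0.00446).

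**Figure D3:**
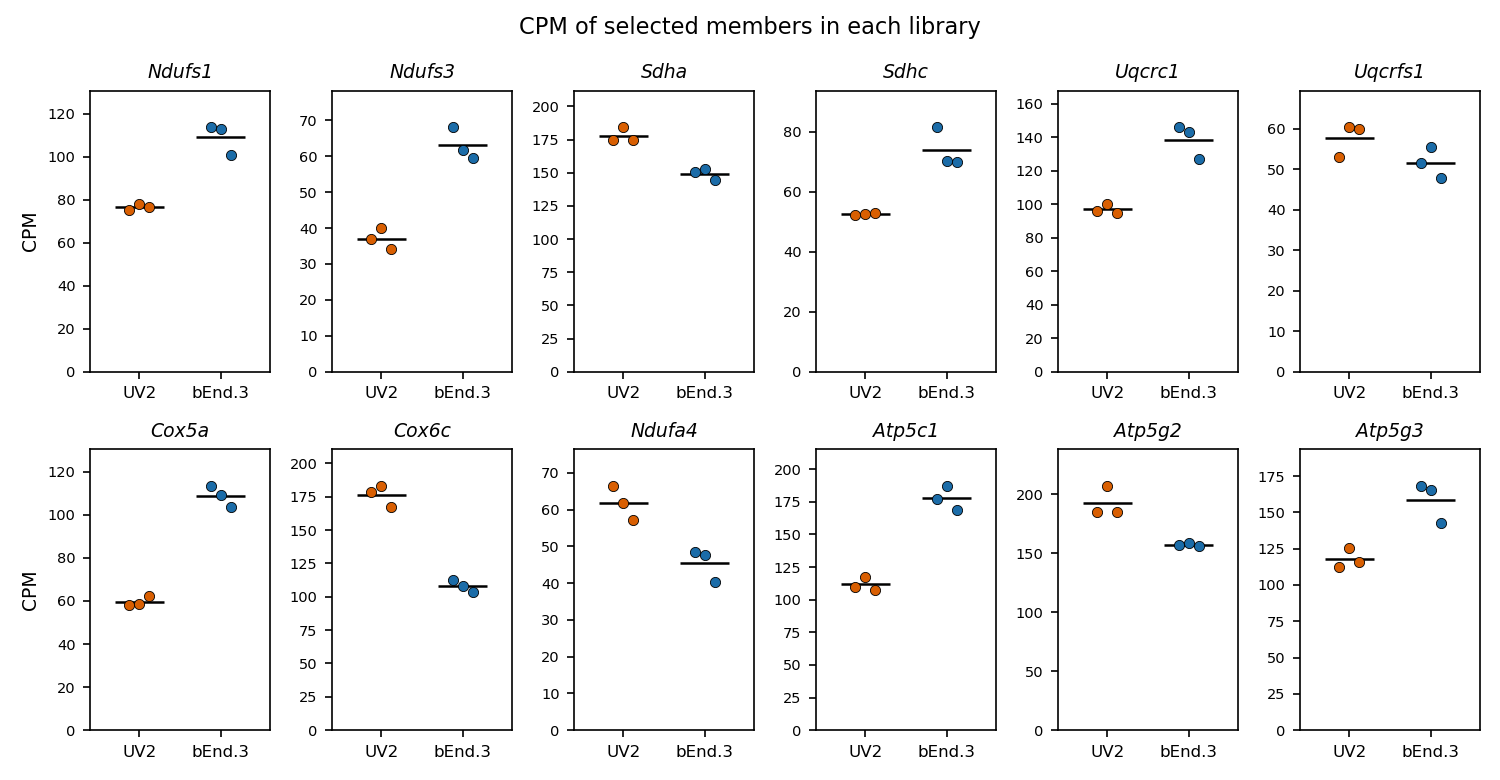
CPM (y axis, from 0) of 12 members in each of the 3 UV2 libraries and the 3 bEnd.3 libraries; points are libraries and lines are means. Sdha, Cox6c, Ndufa4 and Atp5g2 are higher in all UV2 libraries, Uqcrfs1 overlaps, and the other 7 are lower in all UV2 libraries.

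Of the paralog pairs of complex IV, both lines used the widely expressed form. The isoforms best known from heart and skeletal muscle were close to absent. Cox6a2 held 9 counts over the UV2 libraries and 12 over the bEnd.3 libraries, which was 0.115% of the summed counts of Cox6a1 and Cox6a2 in UV2 and 0.0862% in bEnd.3 (exact permutation p = 0.8, two-sided). Cox7a1 held 16 counts in UV2 and 16 in bEnd.3, which was 0.406% of the counts of its pair with Cox7a2 in UV2 and 0.278% in bEnd.3 (exact permutation p = 0.5). Cox8b had 0 counts over the UV2 libraries, which allows a share of up to 0.0367% of its pair with Cox8a by counting error alone (3 counts), and 25 counts over the bEnd.3 libraries (exact permutation p = 0.1). Ndufa4l2, a paralog known to respond to hypoxia, had 1 count in UV2 and 2 in bEnd.3, and Cox6b2 had 1 count in UV2 and 0 in bEnd.3. The testis-linked Cox7b2 and Cox8c had 0 counts in all 6 libraries. With 3 libraries against 3, 0.1 is the smallest p this two-sided test can give, and p-values here are not adjusted over the 7 shares tested.

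Complex V had the highest share of lower members, with 11 of 15 lower (73.3%), 1 higher (6.67%) and 3 not called. The shares of all tested genes were 33.3% lower and 33.9% higher. The summed level of complex V was 2564 ± 113 CPM in UV2 and 3047 ± 213 CPM in bEnd.3 (SD, n = 3 each). In the catalytic F1 head, Atp5c1, the central gamma stalk (chr2:10056030-10080510), had the largest fall with 109.9, 118 and 108 CPM in UV2, against 177, 187 and 169 CPM in bEnd.3. The lines were far apart (log2 fold change -0.67, SE 0.07, adjusted p = 8.78e-05). The alpha subunit Atp5a1 gave 351, 355 and 334 CPM in UV2 and 459, 461 and 409 CPM in bEnd.3, and was 21.8% lower (log2 fold change -0.36, SE 0.07, adjusted p = 0.00316). Its catalytic partner, the beta subunit Atp5b, gave 844, 872 and 781 CPM in UV2 and 991, 909 and 786 CPM in bEnd.3. Those values overlapped and were not called (log2 fold change -0.10, SE 0.10, adjusted p = 0.373). Atp5b had the highest level per kilobase of complex V in bEnd.3 (467 CPM per kilobase, with 434 in UV2). The delta and epsilon subunits Atp5d (log2 fold change -0.24, SE 0.06, adjusted p = 0.00906) and Atp5e (log2 fold change -0.21, SE 0.06, adjusted p = 0.0181) were lower by small amounts, and Atp5e lost its call without UV2 replicate 3 (adjusted p = 0.076) and without bEnd.3 replicate 2 (adjusted p = 0.0562).

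The stalk and membrane part of complex V, taken without the c ring, had lower values in all members and was called lower in all but 1. Of all tested genes, 33.3% were called lower. Of its 7 members, 6 were lower and Atp5f1 was not called (log2 fold change -0.18, SE 0.09, adjusted p = 0.111), but was called lower without bEnd.3 replicate 3 (adjusted p = 0.0328), with total counts (adjusted p = 0.0343) and with the median of nearby genes (adjusted p = 0.00135) or of the chromosome (adjusted p = 0.0048) removed. The sum of these members was 740.1 ± 32.5 CPM in UV2 and 962 ± 47.8 CPM in bEnd.3, 23.1% lower in UV2. Atp5l, the g subunit at the dimer interface (chr9:44913248-44920742), gave 87.3, 95.02 and 88.4 CPM in UV2, against 149, 143 and 129 CPM in bEnd.3 (log2 fold change -0.64, SE 0.08, adjusted p = 1.77e-04). Atp5h, the d subunit of the peripheral stalk (chr11:115415691-115419919), gave 114, 112 and 107 CPM in UV2, against 155, 164 and 165 CPM in bEnd.3 (log2 fold change -0.54, SE 0.06, adjusted p = 1.68e-04). For each of them all UV2 libraries were lower than all bEnd.3 libraries. Atp5k, whose promoter stretch is printed above, was 30.9% lower, and Atp5j, Atp5o and Atp5j2 were lower by 19.0% to 21.5%.

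The 3 genes of the c ring, which encode one mature protein behind different import signals, did not move together. Atp5g2 (chr15:102662868-102671047) gave 185, 207 and 185 CPM in UV2, against 157, 159 and 156 CPM in bEnd.3, higher in every UV2 library (log2 fold change 0.29, SE 0.07, adjusted p = 0.00614). Atp5g3 (chr2:73908447-73912464) gave 112, 126 and 116 CPM in UV2, against 168, 165 and 143 CPM in bEnd.3, lower in every UV2 library (log2 fold change -0.43, SE 0.08, adjusted p = 0.00263). Atp5g1 stood at 57.0 ± 3.14 CPM in UV2 and 57.4 ± 7.25 CPM in bEnd.3 and was not called (log2 fold change -0.01, SE 0.10, adjusted p = 0.936). The sum of the 3 was 367 ± 20.4 CPM in UV2 and 373 ± 22.0 CPM in bEnd.3, and the lines overlapped. Within that sum of counts, Atp5g2 supplied 52.4% ± 0.602 in UV2 and 42.2% ± 2.27 in bEnd.3 (SD, n = 3 each; exact permutation p = 0.1). Atp5g3 supplied 32.1% ± 0.609 in UV2 and 42.4% ± 1.36 in bEnd.3 (exact permutation p = 0.1), and Atp5g1 supplied 15.5% ± 0.972 in UV2 and 15.3% ± 1.11 in bEnd.3 (exact permutation p = 0.7).

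The 9 genes apart from the subunits gave 4 lower (44.4%), 2 higher (22.2%) and 3 not called, where 33.3% of all tested genes were lower and 33.9% higher. Ndufaf3, an early complex I assembly factor (chr9:108565587-108567436), had the largest fall of any member, with 7.77, 9.01 and 7.98 CPM in UV2, against 18.4, 17.9 and 19.8 CPM in bEnd.3. The lines were far apart, and UV2 was 55.9% lower (log2 fold change -1.18, SE 0.11, adjusted p = 4.42e-05). Ndufaf2, a late-stage assembly factor (chr13:108052589-108158652), gave 8.28, 7.66 and 8.02 CPM in UV2, against 4.75, 4.68 and 4.55 CPM in bEnd.3 and was higher (log2 fold change 0.78, SE 0.12, adjusted p = 6.42e-04). Ndufaf7, an arginine methyltransferase of complex I assembly, was also higher, at 18.2 ± 0.493 CPM in UV2 and 14.6 ± 0.852 CPM in bEnd.3 (log2 fold change 0.32, SE 0.09, adjusted p = 0.0158). Ndufaf4 (log2 fold change -0.38, SE 0.12, adjusted p = 0.0252), Ndufaf5 (log2 fold change -0.51, SE 0.16, adjusted p = 0.0221) and Atp5sl (log2 fold change -0.52, SE 0.13, adjusted p = 0.0091), a complex I assembly protein despite its name, were lower. Ndufaf4 lost its call without UV2 replicate 2 (adjusted p = 0.0901) or bEnd.3 replicate 1 (adjusted p = 0.058), and Ndufaf5 without UV2 replicate 1 (adjusted p = 0.0591) or 3 (adjusted p = 0.0664). Without bEnd.3 replicate 1 the log2 fold change of Ndufaf5 was -0.34.

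Most of the higher members lay on chromosomes whose other genes were higher too. The 9 members called higher in UV2 lay on chromosome 15 (Ndufa6, Ndufb9, Cox6c and Atp5g2), chromosome 13 (Sdha, Cox7c and Ndufaf2), chromosome 6 (Ndufa4) and chromosome 17 (Ndufaf7). Other tested genes of chromosomes 13, 14 and 15 were also higher in UV2, with median log2 fold changes of 0.52, 0.71 and 0.51. Of the 12 members on chromosomes 13 and 15 (none lies on 14), 7 were higher, 1 (Ndufs6) was lower and 4 were not called, with a median of 0.23. Of the other tested genes on chromosomes 13, 14 and 15, 67.0% were called higher and 11.4% lower. Of the 71 members elsewhere, 2 were higher, 46 were lower and 23 were not called, with a median of -0.32. Of the other tested genes elsewhere, 35.8% were called lower and 30.0% higher. All 6 members on chromosome 1 and all 6 on chromosome 9 were lower, and the other genes there had medians of -0.26 and -0.27. Of those other genes, 49.4% on chromosome 1 and 49.6% on chromosome 9 were called lower. Elsewhere members and other genes parted: all 4 members on chromosome 19 and all 3 on chromosome 16 were lower beside medians of 0.05 and -0.01, and 2 of 3 on chromosome 3 and 2 of 5 on chromosome 4 were lower and none higher beside medians of 0.23 and 0.26. The other genes called lower were 29.4% on chromosome 19, 30.8% on 16, 23.7% on 3 and 20.1% on 4. The chromosomes were parted by the medians of their other genes after those were seen, and the difference between the parts was not tested.

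Set against their neighbours, most members were lower. The median log2 fold change of the up to 100 nearest other tested genes ran from -0.48 to 0.73 across members. Member and neighbour values had a Pearson correlation of 0.67 and a Spearman correlation of 0.64 over the 83 members, given as a description, since members share libraries and some share neighbours. Of the 83 members, 73 lay below their neighbours and 10 above. With the neighbours' median removed from each gene in the fit, 52 members were lower, 5 were higher and 26 were not called, where the background was 31.2% lower and 30.5% higher. The median log2 fold change was then -0.26, and the SD over members was 0.27 in place of 0.35.

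Several members changed sides under this adjustment. Ndufa6 (-0.30, adjusted p = 0.0192), Ndufb9 (-0.48, adjusted p = 3.32e-04), Sdha (-0.23, adjusted p = 0.0124) and Atp5g2 (-0.25, adjusted p = 0.0142) were lower in log2 terms than their neighbourhoods. Sdhb, whose neighbours on chromosome 4 had a median of 0.73, came to -0.53 (adjusted p = 8.91e-04), and the Rieske protein Uqcrfs1 to -0.32 (adjusted p = 0.0126). Cox6c (0.28, adjusted p = 0.00759), Ndufa4 (0.32, adjusted p = 0.0208) and Ndufaf7 (0.27, adjusted p = 0.0327) stayed higher, and Ndufa1 and Ndufa8 were then called higher. Among lower members, Ndufab1 (-0.78), Ndufa11 (-0.80), Cox5a (-0.60) and Ndufaf3 (-0.92) kept the greater part of their difference, while Sdhc (-0.20, adjusted p = 0.0523), Sdhd (-0.13, adjusted p = 0.0862), Cox6b1 (-0.11, adjusted p = 0.152), Cox5b (-0.04, adjusted p = 0.689) and Atp5g3 (-0.17, adjusted p = 0.112) were no longer called. In the assembly group, Ndufaf2 (0.12, adjusted p = 0.383), Ndufaf4 (-0.33, adjusted p = 0.0502), Ndufaf5 (-0.25, adjusted p = 0.205) and Atp5sl (-0.17, adjusted p = 0.298) also lost their calls. The part of gene copy number in these values was not tested.

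**Figure D4:**
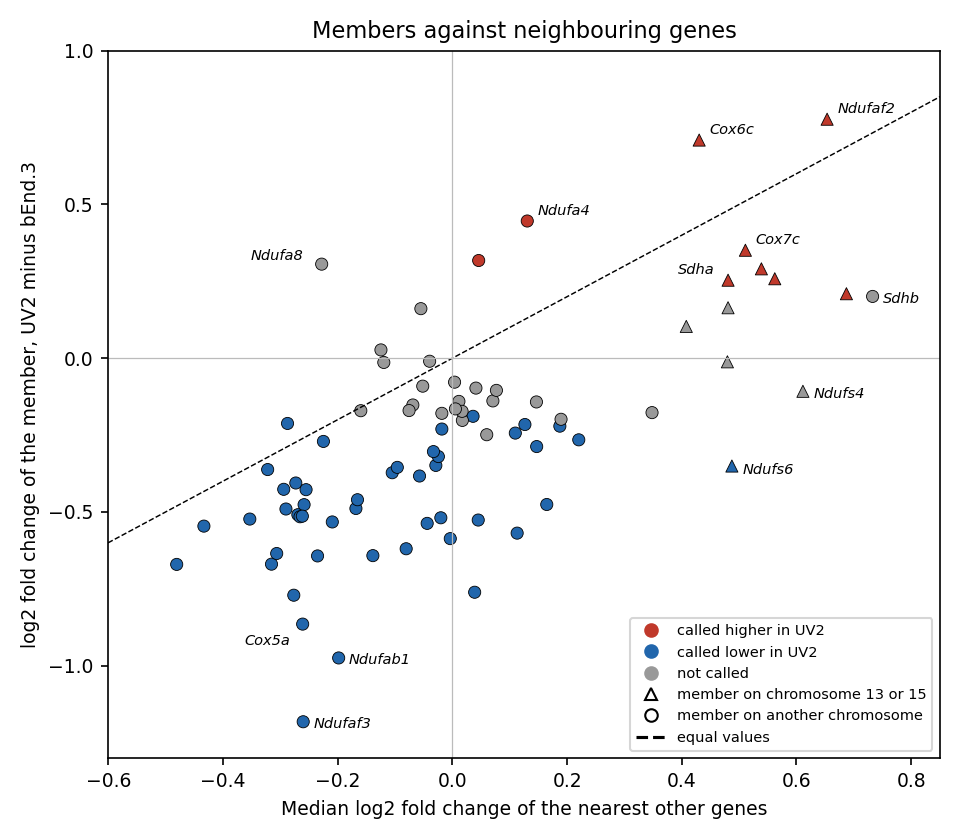
Log2 fold change (UV2 minus bEnd.3) of each of the 83 tested members (y axis) against the median of up to 100 nearest other tested genes (x axis); triangles are members on chromosomes 13 and 15, colours give the call, and the dashed line marks equal values. Of the members, 73 lie below the line, among them Sdha, Sdhb and Cox7c, whose neighbours were higher in UV2.

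Other genes of the pathway, taken from lists of known function, were mixed. Of the 5 tested subunits that the naming rule misses, 2010107E04Rik, a small ATP synthase subunit, was lower (log2 fold change -0.33, SE 0.07, adjusted p = 0.00443) and 4 were not called, among them Cox4i1, the main subunit IV of complex IV (224 ± 19.7 CPM in UV2, 215 ± 6.99 CPM in bEnd.3), and cytochrome c itself, Cycs (124 ± 0.786 CPM in UV2, 129 ± 25.8 CPM in bEnd.3). 2010107E04Rik was no longer called with its neighbours' median removed (-0.11, adjusted p = 0.217). Under that adjustment Cox4i1 (-0.43, adjusted p = 0.00201), Usmg5 (-0.28, adjusted p = 0.0211) and Atpif1 (-0.72, adjusted p = 6.59e-04) were called lower. Cycs stayed uncalled (-0.28, adjusted p = 0.102). Of 44 tested assembly factors with other names, 20 were lower (45.5%), 3 higher (6.82%) and 21 not called, with a median log2 fold change of -0.25, where 33.3% of all tested genes were lower and 33.9% higher. Coa4, a complex IV assembly factor, was lowest (log2 fold change -1.05, SE 0.13, adjusted p = 1.94e-04), and Sco2 on chromosome 15, which delivers copper to complex IV, was highest (log2 fold change 1.03, SE 0.13, adjusted p = 2.45e-04). Of 11 genes of coenzyme Q synthesis, 6 were lower (54.5%), 1 was higher (9.09%) and 4 were not called, with a median of -0.38. Coq4 gave 6.12, 4.85 and 5.59 CPM in UV2, against 17.4, 13.5 and 13.8 CPM in bEnd.3 (log2 fold change -1.43, SE 0.15, adjusted p = 9.60e-05), and Coq2, the transferase that joins the ring to its tail, was higher (log2 fold change 0.53, SE 0.09, adjusted p = 0.00155).

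Genes that drive mitochondrial biogenesis and the expression of mitochondrial DNA gave 6 lower (46.2%), 1 higher (7.69%) and 6 not called of 13 tested, against 33.3% lower and 33.9% higher among all tested genes. Nrf1, the factor whose motif is printed above, stood at 27.7 ± 0.950 CPM in UV2 and 28.2 ± 1.44 CPM in bEnd.3 and was not called (log2 fold change -0.03, SE 0.08, adjusted p = 0.785), nor was Tfam, which packages mitochondrial DNA (log2 fold change -0.00, SE 0.09, adjusted p = 0.984). The GABP subunits Gabpa (log2 fold change -0.52, SE 0.06, adjusted p = 2.18e-04) and Gabpb1 (log2 fold change -0.51, SE 0.10, adjusted p = 0.00225) were lower. Gabpb1 was no longer called with its neighbours' median removed (-0.24, adjusted p = 0.0686), while Gabpa was still called lower (-0.49, adjusted p = 3.21e-04). Esrra, a nuclear receptor known to drive respiratory genes, was lower as well, at 13.0 ± 0.291 CPM in UV2 and 24.2 ± 2.10 CPM in bEnd.3 (log2 fold change -0.89, SE 0.10, adjusted p = 1.17e-04). Tfb1m, which methylates mitochondrial ribosomal RNA, was the lowest (log2 fold change -0.93, SE 0.21, adjusted p = 0.00471), and Polg2, an accessory subunit of the mitochondrial DNA polymerase, the highest (log2 fold change 1.40, SE 0.19, adjusted p = 3.97e-04). The coactivator Ppargc1a had 0 counts in all 6 libraries. Gabpa lies head to head with Atp5j, and annotated exons of these neighbours share 182 bases on opposite strands, so part of their reads could be misassigned if strand was not used in counting.

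Enzymes of the tricarboxylic acid cycle, which supply NADH and succinate to the chain, gave 6 lower (46.2%), 4 higher (30.8%) and 3 not called of 13, against 33.3% lower and 33.9% higher among all tested genes. Idh3a, a subunit of the NAD-dependent isocitrate dehydrogenase, was the lowest, at 43.2, 44.8 and 38.7 CPM in UV2 and 97.0, 85.7 and 71.3 CPM in bEnd.3 (log2 fold change -1.003, SE 0.12, adjusted p = 1.83e-04). The other subunits of that enzyme, Idh3b (log2 fold change -0.74, SE 0.06, adjusted p = 3.54e-05) and Idh3g (log2 fold change -0.31, SE 0.06, adjusted p = 0.00159), were lower too. Sucla2, a succinyl-CoA ligase subunit on chromosome 14, was the highest (log2 fold change 0.59, SE 0.06, adjusted p = 1.15e-04), and with its neighbours' median removed it was -0.21 (adjusted p = 0.0198). The 13 subunits encoded in mitochondrial DNA were not analysed here.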

How the data were processed

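RNA-seq of 3 UV2 and 3 bEnd.3 libraries was made with a TruSeq Stranded mRNA kit, per the labels' protocols. Trim Galore, STAR, RSEM and the build mm10 are named, per the submitters' processing notes; no version, annotation or strand setting is given in the sources used here. A table of the authors' expected counts was deposited by gene symbol, without normalization. Such counts divide reads among genes they fit equally: 12% of genes, and 9 of 91 members, held a value that was not whole in some library (tolerance 1e-06). BALB/c reads carry strain variants against the C57BL/6 reference, and the effect on mapping was not tested. Exons of 12 tested members overlap another protein-coding gene in GENCODE M21, 11 on the opposite strand (Ndufa11, Uqcrc2 and Atp5a1 among them) and Ndufb8 on the same strand.

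Here, expected counts were rounded to whole numbers and filtered with filterByExpr, which kept 12720 of 24411 genes. edgeR 4.0.16 (R 4.3.3, limma 3.58.1) fitted TMM-scaled counts with the line as the only term, by its quasi-likelihood test, with Benjamini-Hochberg adjustment over all tested genes and calls at an adjusted p under 0.05; glmTreat tested against 1.5-fold. The SE of a log2 fold change was its size over the square root of F. The biological coefficient of variation was 0.124. CPM used TMM-scaled totals, with factors of 0.969 to 0.995 in UV2 and 1.016 to 1.027 in bEnd.3. Replicates of a line differed by a chi-square of 11.8 to 40.2 per degree of freedom, and no library was taken as a duplicate. Fits were tested on simulated data.

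Gene positions and promoters came from RefSeq (GRCm38.p6, the assembly of mm10), and transcript lengths from GENCODE M21. Text named the 3 highest and 3 lowest called members per complex that reached 10 CPM in either line, the catalytic subunits, paralog pairs and X-linked subunits, and, from each list, the called genes with the highest and lowest fold change that reached 1 CPM in either line; other genes were named after their values were seen. Some genes that this rule names are not reported here. The members, lists and rule were chosen with earlier results of these data known. Alternatives were DESeq2's size factors, total counts, no filter, at least 1 CPM in 3 libraries, a replicate block, leaving out each library, limma-voom, DESeq2 1.42.0, and removal of the median of the 100 nearest genes. A fit with the chromosome's median removed was chosen after seeing the data.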

Additional observations from a re-analysis of the deposited data

How the results depend on the processing

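Of the 47 members called lower and the 9 called higher, 46 and 9 stayed so with DESeq2's size factors and with at least 1 CPM in 3 libraries, 45 and 9 with no filter and with DESeq2, and 47 and 9 with limma-voom. Total counts moved the median of all genes by -0.07 on the log2 scale and gave 54.6% of calls as lower, against 49.6% with TMM. They made 56 members lower and 7 higher, with 8 lower and 0 higher beyond 1.5-fold, 4 lower in complex III and 0 higher in complex I. The log2 of the summed levels was then -0.33 for complex I, -0.0924 for II, -0.26 for III, -0.27 for IV and -0.33 for the assembly group, and the medians were -0.33 for I, -0.43 for IV, -0.39 for V and -0.24 for the assembly group. No member was higher beyond 1.5-fold, a count of 0, also with no filter, limma-voom, the neighbours' median removed or the chromosome's median removed.

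Removal of the neighbours' median left 5 members higher: 0 in complex II, 0 in complex V and 1 in the assembly group, with 6 lower in complex III and 1 in the assembly group. Medians were -0.34 for complex I, -0.21 for II, -0.25 for III, -0.17 for IV, -0.27 for V and -0.0111 for the assembly group. Removal of the chromosome's median left 3 members higher: 1 in complex I, 0 in II, 0 in V and 0 in the assembly group, with 7 lower in complex III and 2 in the assembly group. Medians were -0.36 for I, -0.19 for II, -0.24 for III, -0.24 for IV and -0.24 for the assembly group. Log2 fold changes that changed sign, given for the neighbours' and then the chromosome's median, were -0.30 and -0.25 for Ndufa6, -0.48 and -0.30 for Ndufb9, -0.23 and -0.27 for Sdha, -0.53 and -0.0542 for Sdhb, -0.32 and -0.36 for Uqcrfs1, -0.30 and -0.42 for Uqcrb, -0.16 and -0.17 for Cox7c, 0.0753 and 0.0644 for Atp5e, 0.0298 and 0.12 for Atp5g1, -0.25 and -0.21 for Atp5g2 and -0.21 and -0.13 for Sucla2. Ndufaf6 changed sign with the neighbours' median (0.11), and Ndufa3 (0.0790), Ndufc2 (0.0106), Uqcr10 (0.0341) and Ndufaf1 (0.11) with the chromosome's. The cause was not tested.

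With each library left out in turn, 39 to 49 members were lower and 7 to 9 higher; 0 to 1 were higher and 3 to 4 lower beyond 1.5-fold. Lower members numbered 16 to 21 in complex I, 2 in II, 2 to 3 in III, 6 to 7 in IV, 10 to 12 in V and 3 to 4 in the assembly group; higher members numbered 0 to 2 in complex I, 1 to 2 in II, 0 in III, 3 in IV, 1 in V and 2 in the assembly group. Over all genes 3765 to 4326 were lower and 3998 to 4416 higher. The c-ring share of Atp5g1 ran from -0.366 to 0.806 percentage points (UV2 minus bEnd.3), and uncalled log2 fold changes that changed sign ran from -0.0311 to 0.0243 for Cyc1 and from -0.10 to 0.0829 for Atp5g1. Atp5s (-0.0495 to -0.00807 in 3 fits) and Ndufaf6 (0.00132 to 0.0605 in 4 fits), also uncalled, changed sign as well, as did Atp5s with total counts (-0.0375) and Ndufaf6 with limma-voom (0.00113). Medians ran from -0.31 to -0.22 in complex I, -0.15 to -0.0769 in II, -0.16 to -0.0618 in III, -0.40 to -0.30 in IV, -0.37 to -0.27 in V and -0.26 to -0.0927 in the assembly group.

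Same-numbered libraries were not shown to be paired: their deviations correlated by 0.085, 0.161 and 0.200, though each correlated best with its own number, a hint from the data and not the design. With the replicate block, 48 members were lower and 11 higher, 2 of these in complex II; Ndufc1 lost its call, and Ndufa8, Ndufb7, Sdhb and Uqcrq gained one.

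Limits: with 3 libraries a line, calls of small differences depend on the number of libraries, and 12 called members lost their call without at least 1 library. Of the called members, 0 changed sign when a library was left out. Isoforms with a handful of counts (Cox6a2, Cox7a1, Cox8b, Ndufa4l2 and Cox6b2) lie near the limit of detection at this depth.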

Other observations

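Among the assembly factors outside the naming rule, lower values were found for some genes that serve each of the complexes. Of the 44 tested, 45.5% were called lower, against 33.3% of all tested genes. For complex II, Sdhaf3 was lower (log2 fold change -0.62, SE 0.22, adjusted p = 0.0351), at 2.64 ± 0.613 CPM in UV2 and 4.04 ± 0.622 CPM in bEnd.3 (SD, n = 3 each), and Sdhaf1, Sdhaf2 and Sdhaf4 were not called. For complex III, Uqcc1 stood at 12.4 ± 0.970 CPM in UV2 and 23.8 ± 0.949 CPM in bEnd.3 (SD, n = 3 each; log2 fold change -0.94, SE 0.10, adjusted p = 8.38e-05) and Uqcc3 was lower too (log2 fold change -0.61, SE 0.10, adjusted p = 0.00101), while Uqcc2 was not called (log2 fold change -0.03, SE 0.09, adjusted p = 0.802). For complex IV, Surf1 (log2 fold change -0.62, SE 0.07, adjusted p = 1.72e-04), Cox20 (log2 fold change -0.85, SE 0.13, adjusted p = 6.63e-04), Cmc1 (log2 fold change -0.84, SE 0.11, adjusted p = 2.44e-04), Coa3 (log2 fold change -0.52, SE 0.08, adjusted p = 9.12e-04) and Cox15, which makes heme a (log2 fold change -0.48, SE 0.07, adjusted p = 5.29e-04), were lower. Cox10, Cox17, Cmc2, Pet100 and Taco1 were lower too, while Sco1, Cox11, Cox16, Cox18, Cox19, Coa5, Coa6, Coa7 and Higd1a were not called. Cox14, on chromosome 15, stood at 46.4 ± 1.76 CPM in UV2 and 27.2 ± 1.47 CPM in bEnd.3 and was higher (log2 fold change 0.77, SE 0.08, adjusted p = 7.14e-05), as was Higd2a on chromosome 13 (log2 fold change 0.68, SE 0.08, adjusted p = 1.35e-04). For complex V, Atpaf2 was lower (log2 fold change -0.59, SE 0.08, adjusted p = 3.33e-04) and Atpaf1 was not called (log2 fold change -0.20, SE 0.08, adjusted p = 0.0676). For complex I, Tmem126b was lower (log2 fold change -0.66, SE 0.11, adjusted p = 8.59e-04), and Acad9 was not called (log2 fold change 0.08, SE 0.09, adjusted p = 0.457). Foxred1 and Ecsit were lower too, and Nubpl, Timmdc1 and Tmem186 were not called. Lrpprc, which stabilises mitochondrial messenger RNA, stood at 95.4 ± 3.85 CPM in UV2 and 92.3 ± 10.3 CPM in bEnd.3 and was not called (log2 fold change 0.05, SE 0.09, adjusted p = 0.649). These genes were chosen after their values were seen.

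In the later steps of coenzyme Q synthesis, Coq9 (log2 fold change -0.52, SE 0.08, adjusted p = 5.53e-04), Coq5 (log2 fold change -0.44, SE 0.09, adjusted p = 0.00338) and Coq6 (log2 fold change -0.38, SE 0.09, adjusted p = 0.00635) were lower in UV2. Coq3 (log2 fold change -0.30, SE 0.13, adjusted p = 0.0784) and Coq7 (log2 fold change -0.25, SE 0.12, adjusted p = 0.0931) were not called. Coq10b, a coenzyme Q-binding protein, was lower (log2 fold change -0.73, SE 0.10, adjusted p = 3.97e-04), and Coq10a was not called (log2 fold change -0.30, SE 0.14, adjusted p = 0.0796). In the tricarboxylic acid cycle, Dlst (log2 fold change 0.26, SE 0.10, adjusted p = 0.0427) and Suclg2 (log2 fold change 0.32, SE 0.09, adjusted p = 0.0127) were higher, and Ogdh (log2 fold change -0.39, SE 0.06, adjusted p = 8.22e-04), Fh1 (log2 fold change -0.51, SE 0.12, adjusted p = 0.00565) and Mdh2 (log2 fold change -0.37, SE 0.09, adjusted p = 0.00764) were lower. Citrate synthase, Cs, the entry enzyme of the cycle, stood at 308 ± 13.6 CPM in UV2 and 344 ± 21.01 CPM in bEnd.3 and was not called (log2 fold change -0.16, SE 0.07, adjusted p = 0.0846).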
